A study of Mus musculus with 36 samples.

Results

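The ribosomal protein genes of the mouse and their pseudogenes were examined for DNA methylation in liver. The members were all autosomal genes of the mm9 annotation whose symbol begins with Rpl or Rps followed by a digit, which gave 217 of 34653 genes. They were split by gene type and symbol. There were 68 canonical genes (39 of the large and 29 of the small subunit) and 8 paralogs. A further 9 were genes of kinases and partners that carry the symbol but are no ribosomal proteins, and 132 had -ps in the symbol. Of the -ps genes, 78 were typed pseudogene, 53 were typed protein_coding and 1, Rpl29-ps3, was typed processed_transcript. The type protein_coding thus covered 138 members, among them 53 -ps genes.

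Whole-genome bisulfite sequencing was done on liver DNA of 24 mice, with 3 males and 3 females in each of 4 groups. The parents were of 2 inbred strains, C57BL/6N (called B6) and C3H/HeN (called C3), while B6C3F1 animals had a B6 dam and a C3 sire, and C3B6F1 animals had a C3 dam and a B6 sire. All animals were 20 weeks old. The parents had been mated at week 10 and their litters weaned at week 16, so that the parent females had borne pups and the F1 females had not. In females, parity and generation therefore cannot be told apart. The animals came from families of a sire, a dam and their F1 offspring, but the labels only number them within a group and do not say which belong together. P-values therefore measure the spread between animals of a group, and relatedness between groups was not modelled.

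Bisulfite converts unmethylated cytosines and leaves methylated ones, and a methylation level is the percentage of reads over a CpG (a C followed by a G) that kept the C. A level was computed for each gene and animal from the summed reads of all listed CpGs within 500 bp of the annotated start (the start window), from beyond 500 bp after the start to the end of the gene (the body), and over the whole gene (the span). Start windows passed if they listed 5 or more CpGs and if no animal had fewer than 30 reads there, which held for 202 of the 217 members. Bodies passed in 99 members, and 89 members had no listed CpG that far into the gene. In all, 15 members passed in neither window, in part the same genes, and 5 had no listed CpG at the start. Each animal had 19.4 to 32.8 reads per autosomal CpG. The labelled tissue showed in the start windows of Alb (27.1%), Apoa1 (16.8%), Ttr (18.5%) and Hnf4a (27.9%), genes of hepatocytes, against 87.3% at Cd3e, a marker of T cells, 73.2% at Myh6 and 77.7% at Pou5f1. Gfap, a marker of astrocytes and stellate cells, had 27.0%.

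Ribosomal proteins assemble with ribosomal RNA into the small and the large subunit of the ribosome, and their genes are transcribed in every growing cell from promoters that mostly lie in CpG islands, stretches rich in CpG and usually free of methylation. Their short and abundant mRNAs are often copied back into DNA and inserted elsewhere in the genome, which leaves processed pseudogenes without introns and without the promoter of the parent. Methylated cytosine tends to mutate to thymine, so that a CpG in methylated DNA becomes TG, or CA when the change is on the other strand.

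The following stretches, from 180 bases before to 20 bases from the annotated start in mm9, show a canonical start beside that of a single-exon paralog with the opposite level. Rps6, a small subunit protein and the substrate of the S6 kinases, lies on the minus strand with the stretch at chr4:86503297-86503496. Rpl10l, a relative of the X-linked Rpl10 that is known from testis, lies on the minus strand with the stretch at chr12:67385369-67385568. Sequences are given 5′ to 3′ on the strand of the gene, and capitals mark each CpG.
Rps6: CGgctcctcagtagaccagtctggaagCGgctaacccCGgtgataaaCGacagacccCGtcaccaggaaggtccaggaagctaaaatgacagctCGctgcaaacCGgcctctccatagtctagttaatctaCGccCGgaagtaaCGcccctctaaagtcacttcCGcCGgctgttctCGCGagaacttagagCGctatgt
Rpl10l: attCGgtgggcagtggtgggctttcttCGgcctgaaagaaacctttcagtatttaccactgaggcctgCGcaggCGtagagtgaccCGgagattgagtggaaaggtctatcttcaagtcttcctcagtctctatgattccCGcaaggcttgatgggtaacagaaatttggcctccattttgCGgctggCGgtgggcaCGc
The Rps6 stretch held 15 CpGs and the Rpl10l stretch 9. Over its whole start window, Rps6 had 0.223% ± 0.14 methylation in B6 and 0.234% ± 0.13 in C3 (SD, n = 6), with 90 listed CpGs. Rpl10l had 94.9% ± 1.1 in B6 and 94.4% ± 0.69 in C3, with 52 listed CpGs.

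Copies of Rpl36, a large subunit protein, show how the coding sequence of a member differs from its copies elsewhere in the genome. The first 180 coding bases of Rpl36 are spread over 2 exons at chr17:56753011-56753416 on the plus strand. The aligned stretches of 3 copies lie at chr12:12918828-12919007 on the plus strand for Rpl36-ps3, at chr4:116512647-116512826 on the minus strand for Rpl36-ps8, and at chr3:99812283-99812462 on the plus strand for Rpl36-ps7. Capitals again mark each CpG, 5′ to 3′ in mm9.
Rpl36: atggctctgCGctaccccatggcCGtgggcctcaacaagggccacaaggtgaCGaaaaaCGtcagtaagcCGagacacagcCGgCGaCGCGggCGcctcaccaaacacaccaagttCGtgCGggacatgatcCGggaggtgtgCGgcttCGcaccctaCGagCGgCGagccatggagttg
Rpl36-ps3: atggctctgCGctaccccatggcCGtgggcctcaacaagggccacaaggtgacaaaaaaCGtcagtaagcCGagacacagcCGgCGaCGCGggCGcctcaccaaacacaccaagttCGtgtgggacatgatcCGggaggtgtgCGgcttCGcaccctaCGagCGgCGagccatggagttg
Rpl36-ps8: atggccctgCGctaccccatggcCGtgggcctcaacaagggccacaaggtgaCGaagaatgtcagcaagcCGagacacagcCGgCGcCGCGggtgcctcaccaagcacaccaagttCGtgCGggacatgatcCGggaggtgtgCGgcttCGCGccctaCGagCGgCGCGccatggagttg
Rpl36-ps7: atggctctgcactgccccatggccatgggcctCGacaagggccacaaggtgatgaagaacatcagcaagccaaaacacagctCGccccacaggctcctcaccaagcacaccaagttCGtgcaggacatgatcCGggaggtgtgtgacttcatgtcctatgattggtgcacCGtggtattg
The parent stretch held 18 CpGs. Rpl36-ps3 differed from it at 2 bases, lacked 2 of these CpGs and held 16 CpGs in all. Rpl36-ps8 differed at 9 bases and lacked 2, but held 18 in all, some of them not in the parent. Rpl36-ps7 differed at 34 bases, lacked 16 and held 5 in all. Whether the parent or the copy had changed at these bases was not tested. Over all aligned CpGs that are CpG in both, the parent had 1.46% ± 1.5 methylation and Rpl36-ps3 96.9% ± 1.0 (SD over 24 animals, 27 CpGs). At 22 CpGs shared with Rpl36-ps8 the parent had 1.54% ± 1.6 and the copy 65.4% ± 8.0. Rpl36-ps7, with 3 listed CpGs in common with its parent, was too sparse for that comparison and had 81.6% ± 3.1 in its start window.

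Starts of the canonical genes were nearly free of methylation and those of the -ps genes were nearly full of it, in every strain and cross. The median over the 68 canonical genes was 0.631% (quartiles 0.292% and 3.40%), and 66 of them lay below 20%. Over the 68 genes typed pseudogene that passed, the median was 92.1% (quartiles 88.5% and 93.9%), with 63 above 80%, 5 between 20% and 80% and none below 20%. Beside them, the median was 5.06% over 19184 protein-coding genes, of which 65.3% lay below 20%, and 87.0% over 3031 pseudogenes, of which 72.8% lay above 80%.

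**Figure D1:**
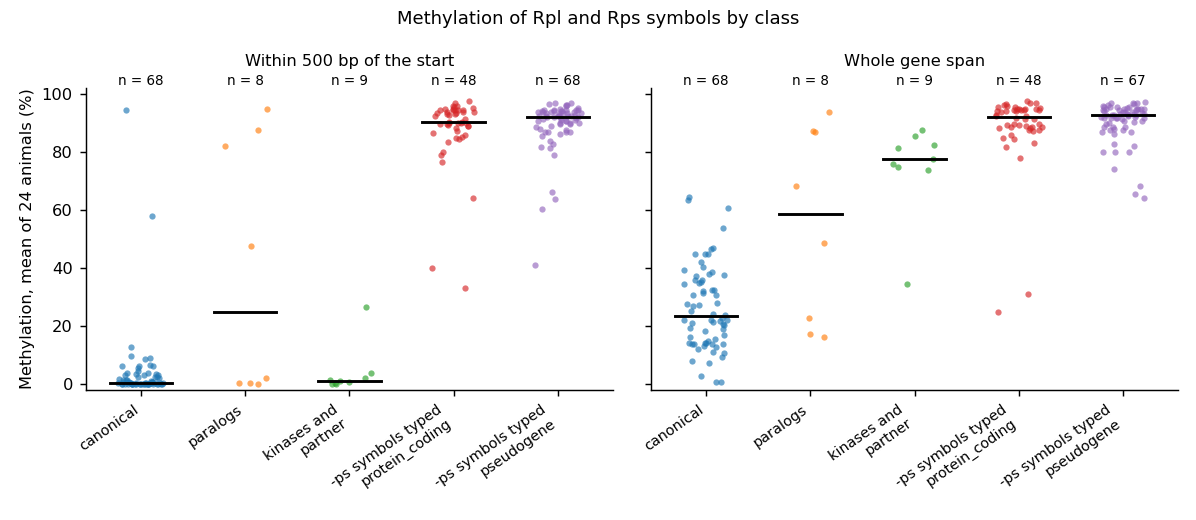
Methylation (%, mean of 24 animals) of each member that passed, by class, within 500 bp of the start (left) and over the whole gene (right). Each point is a gene and each bar the median of its class, 0.631% for canonical starts and 92.1% for starts typed pseudogene.

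The strains and crosses gave the same picture. Class medians for canonical starts, averaged over 6 animals, were 0.581% ± 0.11 in B6 and 0.558% ± 0.14 in C3 parents, and 0.694% ± 0.13 in B6C3F1 and 0.597% ± 0.079 in C3B6F1 offspring. For genes typed pseudogene they were 92.3% ± 0.52, 91.6% ± 0.43, 92.1% ± 0.43 and 91.8% ± 0.35 in that order. Over all 24 animals the canonical median lay between 0.373% and 0.873% and that of the genes typed pseudogene between 91.0% and 92.9%, so that no animal came near the other class.

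The annotated type separated the members less well than the symbol did. Among the 53 -ps genes typed protein_coding, 48 passed, with a median of 90.3% (quartiles 87.1% and 94.5%) and 43 above 80%. Their class medians were 91.3% ± 0.53 in B6 and 91.5% ± 0.64 in C3. Of all 133 protein_coding members that passed, 78 lay below 20%, 8 between and 47 above 80%, with a median of 3.88%. All 53 of these genes had a single exon, against 50 of the 78 typed pseudogene, and the median lengths were 483 bp and 478 bp. By contrast, none of the 68 canonical genes had a single exon, and their median length was 3237.5 bp.

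Canonical genes of the small subunit had a median start level of 0.337% over 29 genes and those of the large subunit one of 0.755% over 39. Rpl7 (0.210% ± 0.12, SD over 24 animals), Rps6 (0.241% ± 0.11) and Rps29 (0.241%) were among the lowest. Above 20% lay only Rps2 (94.3% ± 1.7, 9 CpGs) and Rps10 (58.0% ± 5.8, 19 CpGs), followed by Rpl5 (12.9% ± 4.6), Rps24 (9.81%) and Rps3 (9.23%). For both Rps2 and Rps10 the 5′ end of the gene came from a longer transcript upstream: at the start of the transcript numbered 001, Rps2 had 2.54% ± 2.5 over 84 CpGs and Rps10 3.32% ± 0.69 over 80 CpGs. With that start for every gene, all 68 canonical genes lay below 20%, with Rpl5, whose protein binds the 5S ribosomal RNA together with Rpl11, highest at 12.9%. In 13 of the 68 a start of another coding gene lay within 500 bp, so that the window covers both.

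CpG content differed in the same way. The ratio of observed to expected CpG in the start window, which is 1 where CpG is as frequent as its bases allow, had a median of 0.812 in canonical genes, 0.368 in -ps genes typed protein_coding and 0.366 in those typed pseudogene, against 0.559 over all protein-coding genes and 0.235 over all pseudogenes. The CpG ratio of the copies thus lay between those of all pseudogenes and of all coding genes. Reads per listed CpG had medians of 20.5 in canonical starts, 24.7 in -ps genes typed protein_coding and 26.6 in those typed pseudogene, against 21.4 over all coding genes and 28.0 over all pseudogenes.

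The letters of common promoter motifs were counted on both strands from 250 bases before to 50 bases after the start. Matches were counted for each motif on its own, so that a base could belong to 2 of them. The ETS motif CCGGAAGT, which the Rps6 stretch above holds, was present in 11 of 68 canonical genes (16.2%). It was present in 4.76% of all 21418 protein-coding genes and 8.02% of the 11201 other coding genes with less than 10% methylation at the start. It was also present in 3 of 7 ribosomal protein genes with other symbols, such as Rplp0. None of the 131 -ps genes typed protein_coding or pseudogene held it, where the share of all 4063 pseudogenes was 0.468%. The SP1 motif GGGCGG was present in 42.6% of canonical genes, 43.7% of all coding genes and 69.5% of the others with less than 10% at the start. TATAAA was present in 10.3%, 13.5% and 5.86% of them. The YY1 motif AAGATGGC was present in 7.35% of canonical genes and in 24.5% of -ps genes typed protein_coding and 17.9% of those typed pseudogene, against 3.31% of all coding genes and 6.18% of all 4063 pseudogenes. Among the 77 mitochondrial genes, AAGATGGC was present in 15.6%. A match is only a run of letters and says nothing on binding.

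The 8 paralogs covered the whole range of start levels. Rpl36al, a relative of the X-linked Rpl36a, had 0.254% ± 0.14 (SD over 24 animals), with the start of Mgat2 only 75 bp away. Low levels were also found for Rpl7l1 (0.407% ± 0.20), Rps27l (0.639% ± 0.31), a relative of Rps27 known to respond to p53, and Rpl22l1 (2.28% ± 0.91), a relative of Rpl22. High levels were found for Rpl3l (82.2% ± 3.6), which replaces Rpl3 in heart and skeletal muscle, Rpl39l (87.4% ± 1.7), known from testis, and Rpl10l (94.6% ± 0.87). Low and high were set by these same levels. Single animals reached 5.37% at the highest for Rpl22l1 and 75.1% at the lowest for Rpl3l.

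Rps4y2, a single-exon gene inside Tmtc1 on chromosome 6, lay between these groups. Its levels were 31.5% at the lowest, 38.9% at the median and 50.6% at the highest animal in B6, and 41.7%, 54.1% and 63.3% in C3. B6C3F1 animals spanned 42.1% to 49.6% and C3B6F1 animals 44.7% to 57.1%. The strains overlapped, and the 500 bp before the start (69.9%) were more methylated than the gene itself (48.7% over its span). Its CpG ratio of 0.932 was above the median of the canonical genes.

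The kinases, which act on ribosomal protein S6 or belong to the same family, mostly had starts as low as the canonical genes. Rps6kb1 (0.284% ± 0.19), the S6 kinase of the mTOR pathway, Rps6ka1 (0.345% ± 0.14) and Rps6ka2 (0.987% ± 0.27), of the RSK family downstream of ERK, and Rps6ka5 (0.265% ± 0.14) and Rps6ka4 (3.98% ± 0.86), which phosphorylate histone H3, were all low. So were Rps6kb2 (2.06% ± 0.49), Rps6kc1 (1.39% ± 0.39) and Rps19bp1 (1.02% ± 0.39), whose protein binds Rps19. Rps6kl1 alone lay higher, at 26.7% ± 3.1 over 40 CpGs, with animals from 21.5% to 34.6%. The bodies of these 9 genes had a median of 83.8%, and the lowest was the short Rps19bp1 with 66.0% ± 2.4.

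Of the 116 -ps genes typed pseudogene or protein_coding that passed at the start, 3 lay below 50%. Rpl21-ps3 (chr12:60195042-60195524, minus strand, typed protein_coding) had levels of 29.6%, 36.7% and 39.3% at the lowest, median and highest B6 animal and 25.9%, 29.6% and 34.4% in C3. Rpl27a-ps1 (chr10:60772569-60773065, plus strand, typed protein_coding) had 33.7%, 41.1% and 45.7% in B6 and 31.8%, 39.6% and 44.5% in C3. Rpl9-ps3 (chr11:53314686-53315264, plus strand, typed pseudogene) had 38.5%, 41.9% and 45.3% in B6 and 36.6%, 41.9% and 45.0% in C3. All 24 animals were below 50% at each of the 3, so that the low levels were shared by both strains and both crosses.

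These 3 differed in where the methylation was missing. In Rpl27a-ps1 the 500 bp before the start had 93.5% and the copy itself 31.2%. In Rpl9-ps3 the order was opposite, with 19.2% before the start and 68.3% over the copy. Rpl21-ps3 was low on both sides, with 47.1% before the start and 25.0% over the copy, and the nearest start of a coding gene, that of Mia2, was 1262 bp away. No coding gene started within 500 bp of any of the 3. Between 50% and 80% lay Rpl36-ps8 (60.5% ± 4.9), Rps19-ps10 (64.0% ± 3.9), Rps2-ps6 (64.0% ± 4.9), Rpl7a-ps9 (66.2% ± 4.0, 5 CpGs), Rpl21-ps7 (76.6%), Rpl29-ps1 (78.8% ± 2.3) and Rpl23a-ps1 (79.1%). Highest among genes typed pseudogene were Rpl15-ps3 (97% ± 1.7), Rpl18-ps1 (96.9%), Rpl14-ps1 (96.4%), Rpl36a-ps3 (96.1%) and Rps12-ps5 (96.0%).

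Since the copies differ from their parents in base composition, the levels were also compared at CpGs that were CpG in both. Alignment to the longest coding transcript of the parent covered at least 100 bases for 130 of the 132 -ps genes. In 101 of them, from 42 parents, at least 5 shared CpGs were listed with at least 30 reads in every animal, which gave 1421 shared CpGs. The median level was 41.7% (quartiles 25.8% and 59.7%) in the parent and 92.5% (quartiles 88.7% and 94.9%) in the copy. The copy was higher in 98 of 101. Above 80% lay 94 copies, whereas 22 of the parents' values lay below 20% and 11 above 80%. Copies of 1 parent share its sequence and part of its CpGs, so that the 101 values are not independent.

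Even copies without a base difference over the aligned bases had their own level. The alignment covered 73.6% of Rpl10a-ps1 and 91.8% of Rpl27-ps3. Rpl10a-ps1, identical to Rpl10a over 521 aligned bases, had 93.9% ± 1.4 against 25.8% ± 4.4 in the parent at 16 shared CpGs. Rpl28-ps1 had 92.9% ± 3.7 against 29.6% ± 5.7 at 28 CpGs. Rpl15-ps3 had 96.9% against 26.6% and Rpl27-ps3 94.6% against 47.7%. How many reads of such identical stretches were placed at another copy was not tested.

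All 3 exceptions were copies of Rpl21, the parent with most copies (13). Rpl21 itself had 77.8% ± 6.1 and Rpl21-ps3 27.5% ± 5.5 at 9 shared CpGs. In Rpl21-ps5 (79.2% against 79.5%) and Rpl21-ps7 (84.3% against 85.1%) the level was that of the parent. The shared CpGs of Rpl21 lie in the later exons, which were methylated in the parent too. Next in number of copies were Rps19 (9), Rpl9 (7) and Rpl23a, Rpl30 and Rpl35a (6 each). Start levels spanned 83.4% to 94.5% over the 5 copies of Rpl30 that passed and 33.0% to 94.4% over the 13 of Rpl21.

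**Figure D2:**
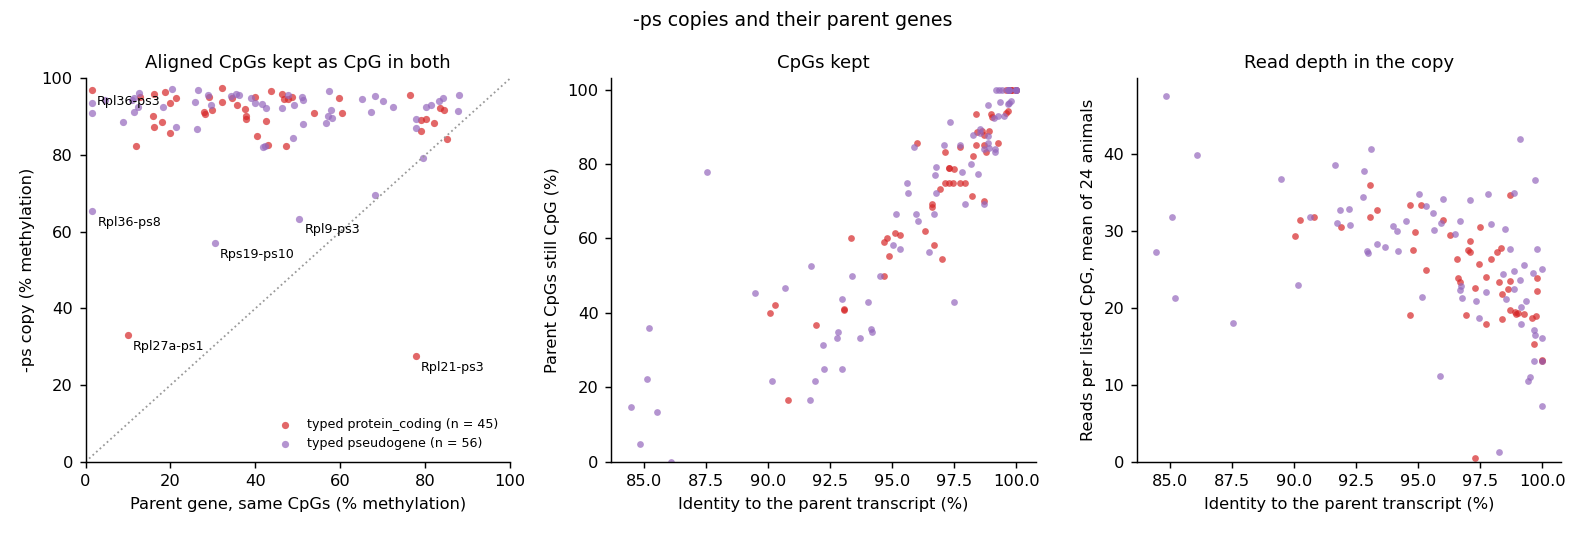
Left, methylation (%, mean of 24 animals) at shared CpGs in the parent (x axis) and the copy (y axis) for 101 copies, with equality as a dotted line. Middle and right, the share of the parent's CpGs that are CpG in the copy (%) and the reads per listed CpG. Both are set against the identity (%) of copy and parent transcript, and depth is lower towards full identity.

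The parents' aligned transcripts held 2420 CpGs over the 130 alignments, and 1747 of them (72.2%) were also CpG in the copy. Of the others, 260 were TG and 273 CA in the copy, together 79.2% of them, and 140 were another pair. TG and CA were thus about equally frequent. The present parent sequence served as the reference, and whether the parent or the copy had changed was not tested. Copies under 93% identity (23) had CpG at 29.9% of these positions, and those from 93% to 97% (35) at 60.7%. From 97% to 99% (40) the share was 83.6% and from 99% (32) 97.1%. Identity counts these differences too, so that the 2 measures are not independent. Across the 130 copies, identity had a Pearson r of 0.505 and a Spearman rho of 0.531 with the CpG ratio at the start.

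Depth fell as identity rose. Median reads per listed CpG within the copy were 31.7 under 93% identity, 29.9 from 93% to 97%, 24.1 from 97% to 99% and 19 from 99%, whereas the 500 bp before the start had 28.6, 26.9, 27.0 and 28.1. Over 119 copies with listed CpGs and a depth, identity had an r of -0.490 and a rho of -0.573 with depth. Of the CpGs that mm9 has in the copies, 93.5%, 97.4%, 85.4% and 86.5% were listed in that order of identity, and 11 copies had none. Among the lowest depths at the start were those of Rps19-ps2 (0.536 reads per CpG), Rpl15-ps3 (8.60), Rps6ka1 (11.3) and Rpl38-ps1 (12.3), of which Rps19-ps2 and Rpl38-ps1 did not pass. The level of the most similar copies thus rests on fewer reads, and the part of depth in it was not tested.

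Over the body, canonical genes had a lower median level than all coding genes, though not at every fixed distance from the start, as given below. The median over 68 bodies was 38.2% (quartiles 29.3% and 54.8%), with 9 below 20% and none above 80%, against 79.0% over 19376 coding genes, of which 45.7% lay above 80%. Other coding genes with less than 10% at the start had 79.3%. By strain or cross the canonical median was 38.0% ± 1.0 in B6 and 39.4% ± 1.3 in C3 parents, and 38.4% ± 0.86 in B6C3F1 and 38.7% ± 1.1 in C3B6F1 offspring (SD, n = 6). Small and large subunits had 38.3% and 38.1%. Among the lowest were Rpl36 (1.6% ± 1.7), Rps27 (3.36% ± 2.1), Rps2 (9.76% ± 3.2) and Rps21 (11.9%). Since the annotated 5′ end of Rps2 lies upstream of transcript 001, its body also takes in CpGs near that transcript's start. Among the highest were Rpl22 (75.9% ± 1.3), Rps26 (75% ± 2.3), Rpl11 (70.5%) and Rps28 (68.6%).

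Canonical genes are short, so that levels were also compared at fixed distances from the start. In B6 the median of canonical genes was 0.4% in the 100-bp bin from 600 bp, 1.3% from 800 bp and 4.9% from 1000 bp, where other coding genes with less than 10% at the start had 1.1%, 4.5% and 16.1%. From 1200 bp the medians were 38.1% and 35.3%, and from 1800 bp 68.6% and 77.4%. Upstream, from 1000 bp before the start, canonical genes had 82.7% and the others 53.1%. The unmethylated stretch of canonical genes therefore extended mainly into the gene. In C3 the canonical medians at 600, 800, 1000, 1200 and 1800 bp were 0.4%, 1.3%, 5.0%, 38.6% and 76.6%. Bins of single genes differ in their CpGs, and these medians are a description.

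**Figure D3:**
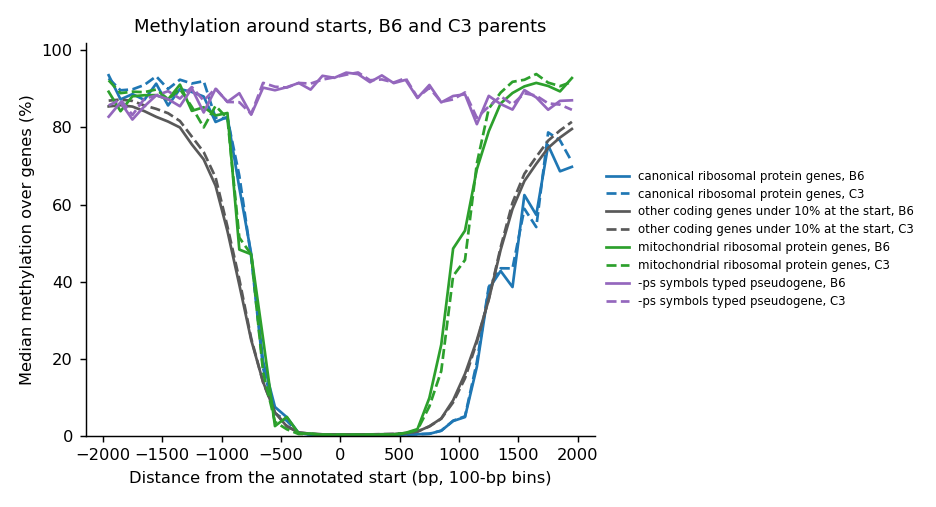
Median methylation over genes (%, y axis) in 100-bp bins by distance from the annotated start (bp, x axis), in B6 (solid) and C3 (dashed) parents. In the bin where canonical genes have 4.9% in B6, mitochondrial ribosomal protein genes have 53.2%.

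Within the bodies, exons of canonical genes had a median of 49.6% (66 genes) and introns one of 35.0% (60 genes), against 82.3% and 78.7% over all coding genes. Exons and introns lie at different distances from the start, and exons are also the stretches that copies share. Reads per CpG were 25.9 in canonical exons and 25.6 in their introns.

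Other genes of ribosomes set these values in context. The 7 ribosomal protein genes with other symbols (Rplp0 and Rpsa among them) had medians of 0.532% at the start and 49.9% in the body. For 77 nuclear genes of mitochondrial ribosomal proteins the start median was 0.672%, close to that of the canonical genes, with 74 below 20%. Their bodies, however, had 79.7% over 76 genes, as coding genes at large, and in B6 their median was 53.2% in the bin where canonical genes had 4.9%. These medians are a description, and the difference between cytosolic and mitochondrial ribosomal protein genes was not tested.

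Bodies of the -ps genes were mostly too short to measure. Those of 8 genes typed pseudogene and 6 typed protein_coding passed, with medians of 94.4% and 94.2%. Rpl19-ps11 (84.0%) and Rpl5-ps1 (89.7%) were lowest and Rpl13-ps1 (97.7%) highest among the 8. Over the whole span, which 67 and 48 of them passed, the medians were 92.5% and 91.9%, against 23.4% in canonical genes.

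The parent strains were compared to find members whose methylation depends on the genetic background. Each window was fitted with limma on the log2 ratio of methylated to unmethylated reads, over all genes or windows of the autosomes, with p adjusted by Benjamini and Hochberg over all of them. A window was called where the adjusted p was below 0.05 and the groups differed by 20 percentage points or more. No start window of the 202 members was called, where the background was 0.46% of 29566 genes. At the lower limit of 10 points, 3 starts were called, where the background was 2.26%. By limma, 35 of the 202 had an unadjusted p below 0.05 (22.8% over all genes) and 16 an adjusted p below 0.05 (10.6% over all genes), 8 higher and 8 lower in B6. Canonical starts differed by a median of -0.05 points, with 66 of 68 within 5 points.

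The largest differences at the start were those of Rps10 and Rps4y2, genes with an intermediate level. Rps10 (chr17:27767367-27773574, minus strand) had 47.5%, 50.1% and 56.5% at the lowest, median and highest B6 animal and 62.8%, 64.1% and 67.2% in C3. The strains did not overlap, and the difference was -13.6 points (log2 -0.81 ± 0.12, SE, limma adjusted p = 4.84e-06). Both crosses lay between, with 58.5% ± 3.1 and 58.3% ± 4.2. As said above, this window is at the upstream end of the annotated gene. Rps4y2 was lower in B6 by -11.9 points (limma adjusted p = 0.0099), with the overlap given above.

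Among the copies, Rps19-ps3 (chr4:147195886-147196335, minus strand) was higher in B6, with 93.2%, 94.2% and 96.3% against 81.7%, 84.3% and 86.8% in C3. The strains were apart by 10.2 points (log2 1.66 ± 0.16, limma adjusted p = 2.01e-09), and the crosses had 90.7% ± 1.4 and 89.7% ± 1.8. Its start window holds 9 positions of the authors' list of single-nucleotide variants from mm9 (SNVs). Positions where both strains share a base unlike mm9 were not set apart in these counts. Depth there was 29 reads per CpG in B6 and 19.1 in C3, and its part was not tested. Rps19-ps13 was higher in B6 by 9.91 points (83.8% ± 1.7 against 73.9% ± 1.8), with 1 SNV. Rpl28-ps1, identical to its parent over the aligned bases, was higher by 6.05 points (96.7% ± 0.77 against 90.7% ± 3.3).

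Smaller differences past an adjusted p of 0.05 were those of Rps6kl1 (-6.45 points), Rpl30-ps1 (-5.72) and Rpl5 (-5.62) among the lower in B6, and of Rpl21 (4.36) among the higher. Rpl21 had 8.50% ± 1.1 in B6 and 4.14% ± 1.5 in C3, where its depth was 20.2 and 10.6 reads per CpG. Rpl36-ps8 (5.65 points) and Rpl21-ps3 (5.46 points) were next in size among those higher in B6, without reaching an adjusted p of 0.05.

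Of 99 bodies, 1 was called, that of Rpl31, where the background was 0.146% of 24003 genes. Rpl31, of the large subunit, lies at chr1:39424696-39428753 on the plus strand, and its body had 65 listed CpGs. Levels were 43.4%, 48.2% and 49% at the lowest, median and highest B6 animal and 64.4%, 68.8% and 69.7% in C3. The difference was -20.8 points (limma adjusted p = 7.46e-09), without overlap, and the crosses lay between with 54.5% ± 2.8 and 55.0% ± 3.4. Depth was 30.3 reads per CpG in B6 and 19.8 in C3, and its part in the difference was not tested. The value is close to 20 points, and the call was lost without the first B6 female (-19.9 points). It was also lost over the whole span of the gene.

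With a limit of 10 points, 4 bodies were called (background 0.942%). By adjusted p alone, 30 of the 99 bodies differed (38.1% over all genes), 11 higher and 19 lower in B6. The split by direction over all bodies was not counted. Next in size were Rps3, with 62.0% ± 1.3 in B6 and 46.3% ± 2.5 in C3, Rpl32, with 26.7% ± 1.9 and 14.4% ± 1.7, and Rpl26, with 51.5% ± 3.3 and 41.4% ± 3.2. These were higher in B6 by 15.7, 12.3 and 10.2 points. On the other side stood Rpl29 (-7.99 points), Rps2 (-7.74), Rps15 (-6.83) and Rpl14 (-6.40). As said above, the body of Rps2 takes in CpGs near the start of transcript 001. Depth in C3 was lower at most of these bodies, with 16.6 against 32.1 reads per CpG at Rps3 and 10.6 against 31.4 at Rpl26. The part of depth was not tested.

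Fixed windows of 500 nt show where within the genes the strains differed. Of 1517 member windows tested, 12 were called (0.791%), where the background was 0.494% of 1456902 windows, 7 higher and 5 lower in B6. With a limit of 10 points 36 were called (background 2.39%). By adjusted p below 0.05 alone, 121 differed (6.63% over all windows), 36 higher and 85 lower in B6. The split by direction over all windows was not counted, so that it is not known whether members differ in it. With at least 100 reads in each animal, 5 of 1182 member windows were called, beside 3325 of all 1015496. The 12 windows lay in or near 6 genes: 5 in Rps6ka1, 3 in or before Rpl21 and 1 each in Rps29, Rps25, Rps6ka2 and Rpl35a-ps7.

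The largest difference was upstream of Rpl21. The window at chr5:147643501-147644000, centred at -716 bp from the start, had 14 CpGs and levels of 76.1%, 85.2% and 87.3% at the lowest, median and highest B6 animal against 29.1%, 38.8% and 44.2% in C3. The difference was 46.2 points (log2 3.12 ± 0.18, limma adjusted p = 2.28e-14), with 1 SNV in the window. Both crosses lay near B6, with 73.4% ± 5.5 and 74.5% ± 4.0, above the mean of the parents' levels (60.9%). Depth was 27.2 reads per CpG in B6 and 10.8 in C3, and the mean of the parents weighted by depth was 70.9%. The part of depth in these levels was not tested.

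Within Rpl21 the order was opposite. At chr5:147647001-147647500, with exon sequence, B6 had 70.1% ± 3.3 and C3 92.4% ± 2.9 (-22.3 points, limma adjusted p = 7.44e-09), with crosses at 79.3% ± 5.6 and 83.5% ± 5.2. The window before it differed by -21.7 points. Depth was 29.9 reads per CpG in B6 and 18.6 in C3 in the first, with 4 SNVs. In the window before it, depth was 35.4 and 18.0, with 2 SNVs. The part of depth was not tested. Both called windows inside the gene were thus lower in B6, and the one before it was higher.

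Rps6ka1, the kinase RSK1, held 5 called windows within 8 kb of its start, all higher in B6. Centred 1462 bp after the start (chr4:133442001-133442500), with exon sequence and 9 SNVs, the window had 39.7% ± 4.9 in B6 and 8.94% ± 3.8 in C3, a difference of 30.7 points (limma adjusted p = 1.97e-11). Centred 7962 bp after the start, in an intron, it was 62.1% ± 3.5 against 23.7% ± 6.1, the largest of the 5 (38.4 points). Differences of 22.5, 30.9 and 27.8 points were found 3462, 4462 and 5462 bp after the start. In all 5 the means of both crosses lay between those of the parents, as with 47.7% ± 4.5 and 50.1% ± 8.2 at 7962 bp. Depth was lower in C3 in all 5, from 21.6 against 10.7 reads per CpG at 1462 bp to 34 against 28.4 at 3462 bp, and its part was not tested. With at least 100 reads per animal 2 of the 5 were tested, and both were called. The start window itself, at 0.273% ± 0.082 in B6 and 0.278% ± 0.11 in C3, did not differ past the threshold.

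Rps6ka2 held the largest difference towards C3, 125786 bp after its start with exon sequence (chr17:7500001-7500500). B6 had 19.1%, 27.5% and 36.0% and C3 59.5%, 65.8% and 73.0% at the lowest, median and highest animal. The groups were apart by -38.9 points (limma adjusted p = 7.81e-13), and the crosses had 41.3% ± 1.6 and 46.2% ± 4.3, near the mean of the parents of 46.6%.

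Among smaller called differences, Rps29 was higher in B6 (68.5% ± 4.3 against 45.3% ± 4.1) in a window with exon sequence 1423 bp after its start. Rps25 was lower in B6 in an intron 1453 bp after its start (64.4% ± 5.0 against 87.2% ± 5.2), with 22.3 and 9.8 reads per CpG. In the window of Rpl35a-ps7, the single copy with a called window, B6 had 64.3% ± 5.5 and C3 89.7% ± 3.2 over 5 CpGs. Its centre lay 381 bp after the start, whereas the copy has 333 aligned bases, so that the window held only part of the copy. Over its whole span the copy had 88.6% at 10 listed CpGs (mean of all animals). In its start window, which covers the whole copy, the strains differed by less than 5 points. Whether the difference in the called window lay in the copy or beyond its end was not tested.

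**Figure D4:**
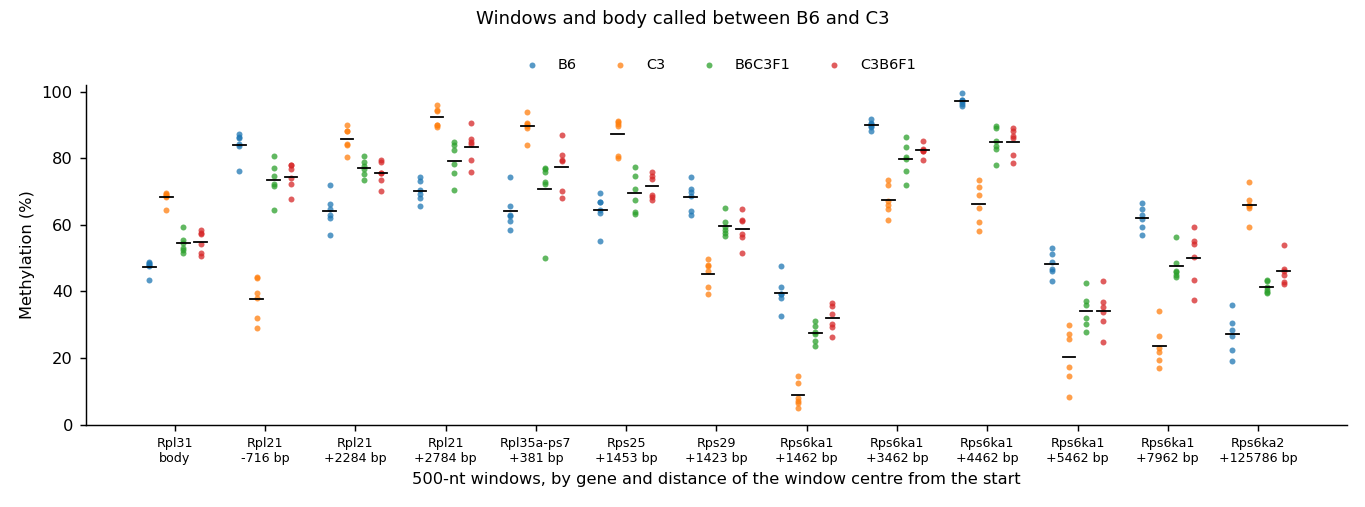
Methylation (%, y axis) of each of 24 animals in the body of Rpl31 and in the 12 windows of 500 nt called between B6 and C3, by gene and distance of the window's centre from the start; bars are means of 6 animals. Means of B6C3F1 and C3B6F1 lie between those of the parents in all 13 sets.

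Reciprocal crosses carry the same autosomal alleles from opposite parents. Between B6C3F1 and C3B6F1 no member was called at the start (background 0.0%), in the body (0.0%) or in windows (0.000686%). By limma, 7 of 202 starts, 11 of 99 bodies and 80 of 1517 windows had an unadjusted p below 0.05, against 7.22%, 12.8% and 6.69% over all genes or windows, and none had an adjusted p below 0.05 (0.0169%, 0.0167% and 0.00192% over all). Canonical starts differed by a median of 0.04 points, between -1.25 and 0.90.

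All 12 F1 animals were compared with all 12 parents, each group of sex and strain weighted equally. At this 20-point limit no member was called at the start (background 0.00676%), in the body (0.0%) or in windows (0.00281%), with 11, 10 and 114 at an unadjusted p below 0.05 by limma (7.81% of all starts, 2648 of all 24003 bodies and 7.18% of all windows). With a limit of 10 points, 0 starts, 0 bodies and 3 windows were called (background 0.0271%, 0.00417% and 0.0491%). The adjusted p was below 0.05 in no start (0.237% over all) and no body (0.279%), and in 5 windows (0.134% over all windows), all higher in the F1: the windows of Rpl21 (13.1 points) and of Rps6ka1 1462 bp after the start (5.36 points) described above, 2 in Rps6ka2 (12.1 and 12.7 points) and 1 in Rpl7l1 (8.61 points). In the Rps6ka1 window the F1 mean of 29.7% was also close to the parents' mean weighted by depth, 29.5%.

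In the windows of Rps6ka2 and Rpl7l1 the parents differed by sex. At chr17:7475501-7476000, centred 101286 bp after the start of Rps6ka2, the parent females had 50.6%, 58.0% and 77.9% at the lowest, median and highest animal. The parent males had 80.4%, 87.5% and 90.3%, the F1 females 83.1%, 87.7% and 93.2% and the F1 males 80%, 82.8% and 84.7%. Every parent female lay below every other animal, in B6 and in C3 alike. After these values were seen, F1 and parents were compared within each sex.

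Within females, 2 of 1517 member windows were called, where the background was 0.0198%, and 5 had an adjusted p below 0.05 (0.181% over all). The 2 were both in Rps6ka2 and next to each other. The F1 females were higher by 28.0 points at chr17:7475501-7476000 (log2 2.27 ± 0.23, limma adjusted p = 5.5e-07) and by 23.6 points at chr17:7476001-7476500 (adjusted p = 6.8e-06). Both were called without any 1 of the 12 females, with differences of 25.1 to 31.0 and 21.0 to 25.6 points. The window before them differed by 17.0 points (adjusted p = 0.000563) and that of Rpl7l1 at chr17:46912501-46913000 by 17.3 points (adjusted p = 1.82e-06), both in the same direction. None of these 4 windows holds an SNV. A window in an intron of Rps6ka5 differed by 3.27 points (adjusted p = 0.0429).

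Within males no member window was called (background 0.00227%), 95 had an unadjusted p below 0.05 by limma (6.26% over all) and none an adjusted p below 0.05 (0.0143%). The difference between the sexes had an adjusted p below 0.05 in the same 3 windows of Rps6ka2 (19.1, 31.6 and 21.8 points) and in that of Rpl7l1 (17.5 points), 4 windows in all (0.0428% over all windows), of which 2 exceeded 20 points (background 0.0185%). At Rpl7l1, parent females had 61.3%, 68.1% and 75.4% and the other 18 animals at least 80.8%. Rps6ka2 is one of the kinase genes and Rpl7l1 one of the paralogs.

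**Figure D5:**
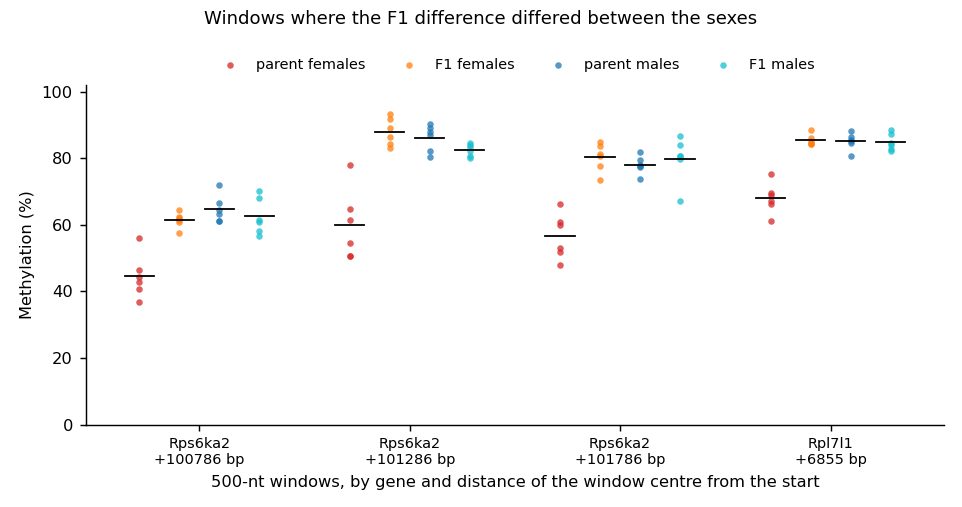
Methylation (%, y axis) of each of 24 animals in the 4 windows of 500 nt where the difference between F1 and parents differed between the sexes, with bars for means of 6 animals. Parent females lie below every other animal in each window, as with 50.6% to 77.9% against at least 80% at 101286 bp in Rps6ka2.

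At member starts and bodies, comparisons within a sex called none (background 0.0135% and 0.0% for females, 0.0101% and 0.0% for males). By limma, 7 starts (7.06% over all) and 8 bodies (17.5%) had an unadjusted p below 0.05 in females, and 11 (6.67%) and 7 (7.69%) in males. An adjusted p below 0.05 was reached by no start in females (0.145%), in males (0.0507%) or for the difference between the sexes (0.0406%). The body of Rps6ka2, of which the windows are a small stretch, was higher in F1 females by 1.06 points (limma adjusted p = 0.0251), the single body past an adjusted p of 0.05 in females (3.92% over all), and none was in males (0.0125%). For the difference between the sexes it was again the single one, at 1.54 points (limma adjusted p = 0.0305, 2.2% over all).

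Whether the difference between B6 and C3 depended on sex was also tested in the parents. No start (background 0.00338%), body (0.0%) or window (0.00151%) of a member was called, and none had an adjusted p below 0.05 (0.00338%, 0.0125% and 0.00178% over all). By limma, 13 starts, 14 bodies and 76 windows had an unadjusted p below 0.05 (6.62%, 9.77% and 5.42% over all).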

How the data were processed

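Liver DNA of 24 mice was sequenced after bisulfite conversion, and the authors deposited, for each CpG, counts of methylated and of unmethylated reads per animal. Before that, the authors filtered reads at a mean base quality above 20, aligned them to mm9 with Bismark 0.7.8 and Bowtie 0.12.8, removed duplicates, trimmed overlapping mates, merged the libraries of an animal, and kept CpGs whose dinucleotide is present in mm9, B6 and C3. A list of single-nucleotide variants from mm9, with the bases of B6 and C3, was also deposited, and all its positions were counted as SNVs. The 12 chromatin immunoprecipitation samples were not analysed here, and 0 columns of other series were found.

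Counts of 18887127 autosomal CpGs (365740739 to 619888157 counts per animal) were summed per window. The log2 ratio of methylated to unmethylated reads, each with a pseudocount of 1, was fitted with limma 3.58.1 in R 4.3.3 over 8 groups of strain or cross and sex, with adjustment by Benjamini and Hochberg over all features. SNVs and depth are given beside results and were not used in the fit. Sequence was read from mm9 with pysam 0.24.0 and aligned with Biopython 1.88 under Python 3.11.15 (numpy 2.4.6, pandas 2.3.3).

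Named were every paralog and kinase, the 5 highest and 5 lowest starts and bodies of canonical genes and pseudogenes, called members, the 5 largest strain differences each way, the 5 parents with most copies, the 5 members of lowest depth and copies under 50%. Rpl36 and its copies, the sequences shown and identical copies were chosen after their values were seen. Members and lists were chosen with earlier results of these data known. Alternatives changed the pseudocount, read and CpG minimums, scale, window, difference and the replicate block, and left out each animal in turn. The fits were tested on simulated data. Some members that this rule names are not reported here.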

Additional observations from a re-analysis of the deposited data

Results flagged for a closer look

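Single animals that stood apart from the other 5 of their strain or cross by Dixon's ratio were found in 19 of 352 sets, where chance flags about 1 in 20. Among starts in C3 these were Rpl10a-ps1 (95.2% in 1 female, others 91.4% to 91.8%), Rpl19-ps11 (87.3%, others 89.4% to 90.7%), Rpl22 (0.781%, others 0.186% to 0.370%), Rpl31 (2.34%, others 0.240% to 0.554%), Rps27 (0.959%, others 0.295% to 0.536%) and Rps6kb2 (2.65%, others 1.85% to 2.01%). In B6 they were Rpl21 (6.44%, others 8.54% to 9.48%) and Rpl36 (7.02%, others 3.09% to 4.34%). In C3B6F1 they were Rpl10a-ps1 (94.9%, others 91.5% to 92.5%), Rpl22l1 (5.37%, others 1.69% to 2.86%), Rpl29 (1.73%, others 0.644% to 0.952%), Rps15 (3.09%, others 3.95% to 4.45%) and Rps19-ps3 (86.2%, others 89.5% to 91.0%). In B6C3F1 it was Rps6ka4 (5.32%, others 3.24% to 3.78%). In the body of Rpl31, 1 female stood below the others both in B6 (43.4%, others 47.6% to 49%) and in C3 (64.4%, others 68.3% to 69.7%). Among called windows these were Rpl35a-ps7 in B6C3F1 (50%, others 72.3% to 77.1%), Rps6ka1 centred 7962 bp after the start in B6C3F1 (56.4%, others 44.4% to 48.5%) and Rpl21 centred at -716 bp from the start in B6 (76.1%, others 83.7% to 87.3%).

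The difference between F1 and parents was larger in females than in males, by the test of the difference in limma, in 3 windows of Rps6ka2 centred 100786, 101286 and 101786 bp after the start, by 19.1 points (adjusted p = 0.0303), 31.6 points (adjusted p = 5.82e-05) and 21.8 points (adjusted p = 0.0266). It was larger by 17.5 points in the window of Rpl7l1 (adjusted p = 0.00196) and by 1.54 points in the body of Rps6ka2 (adjusted p = 0.0305), where 2.2% of all bodies had an adjusted p below 0.05. These comparisons were chosen after seeing the data. Parity and generation cannot be told apart in females.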

How the results depend on the processing

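Over the comparisons and medians, other settings and fits without 1 animal were set against the value reported. In 85 other settings and 383 of 384 fits without 1 animal, a count was within 1.5 times or a median within 1 SD of it. In 17 settings it was not. Most of these counts were 0 in every fit without 1 animal, and 0 against 0 was taken as the same. A median over 24 animals also moves little without 1 of them, so that this agreement was largely fixed in advance. With a difference of at least 10 points, counts of called members between B6 and C3 were 3 at starts, 4 in bodies and 36 in windows, and 3 windows were called between F1 and midparent. Where no animal had fewer than 100 reads, 5 of 1182 windows were called between B6 and C3 (3325 of 1015496 over all). Over the whole span no body was called, and without 1 animal at a time the counts were 0 to 1 in bodies, 12 to 14 in windows between B6 and C3, and 0 at its starts and in the 3 other planned contrasts. In females only, added after seeing the data, 2 windows were called between F1 and parents, as in each of 12 fits without 1 female. The canonical start median was 0.279% within 250 bp, 4.99% within 1000 bp and 0.467% at the start of transcript 001, and 0.596% to 0.642% without 1 animal. That of genes typed pseudogene was 93.1% within 250 bp, 88.7% within 1000 bp and 92.0% to 92.2% without 1 animal. The body median of canonical genes was 23.4% over the whole span and 38.0% to 38.4% without 1 animal. That of genes typed pseudogene was 92.5% over the whole span, 93.3% without minimums, 97.7% with at least 10 CpGs, 92.9% with at least 100 reads and 94.3% to 95.0% without 1 animal. With the replicate number as a block, counts between B6 and C3 were 0 at starts, 1 in bodies and 12 in windows, and the 3 other planned contrasts had 0, so that the replicate block changed none of these counts. The comparisons within a sex were not run with the block. The labels do not tie the numbers to families. The correlation of deviations from the group means was -0.13 to 0.21 (median 0.03) over 84 pairs of the same number and -0.14 to 0.19 (median -0.01) over 168 pairs of different numbers, and 14 of 24 animals correlated best with their own number, a hint from the data only. Copies nearly identical to their parents had fewer reads, and the part of depth in their levels was not tested.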
